A study of Drosophila melanogaster with 6 samples.

Results

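The stretches described here are the parts of the Drosophila melanogaster chromosome arms in which no H2Av was called over 50 kb or more. Regions of the 3 replicate lists of H2Av ChIP-seq were merged into 1 union, and every stretch between neighbouring union regions, or between a sequence end and the nearest region, that reached 50000 bp on 2L, 2R, 3L, 3R or X was taken (called a gap below). This gave 505 gaps among 4414 stretches without a region, or 11.4% of them. The gaps were chosen by the positions of called regions, so their number, length and emptiness in these lists are given as a description, with no test.

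The lists come from ChIP-seq (sequencing of DNA recovered with an antibody from fixed chromatin) with the antibody H2AV 9751 on whole embryos of 14 to 16 h, fixed in 1.8% formaldehyde. The embryos were of the strain Oregon-R (Oregon-R-modENCODE), wild type in genotype, which the ChIP and input groups share. There were 3 ChIP libraries and 3 input libraries (chromatin sequenced without the antibody), and for each ChIP library the authors deposited the regions in which it was enriched over its input, with 4403, 5016 and 4763 regions in replicates 1, 2 and 3. The authors' list for all replicates together, called the combined list, has 5905 regions.

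H2Av is the fly's only H2A variant of the H2A.Z type. It is known from the start of active and poised genes, from the chromatin of the response to DNA breaks and from heterochromatin formation. Much of the euchromatic fly genome is known to lie in long domains of silent chromatin, poor in the marks of active genes, that hold few or tissue-specific genes and alternate with compact, gene-rich active domains. A whole embryo mixes many cell types, so a region called in it may be occupied in some of them and not in others. A gap is a stretch with no called region and may still hold H2Av below the authors' threshold. Read numbers are not in the lists, so depth is unknown, and the part of each gap that can be mapped was not analysed here. Positions are on FlyBase release 5, and no genome or gene annotation of that release was used, so gaps are named by position, with no sequence and no gene.

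H2Av gaps took up more of the arms than the rest of the chromosomes did. The 505 gaps together measured 63.5 Mb, which is 53.4% of the 119 Mb of the 5 arms and 67.5% of all bases outside union regions. Their lengths ran from 50.1 to 637 kb, with a median of 104 kb and quartiles of 68.7 and 156 kb. The other 3909 stretches were short, with a median of 3.28 kb. The gaps of 100 kb or more numbered 264 and held 39.2% of the arms by themselves. Just above the limit lay gaps of 50123, 50170 and 50397 bp, on 3R, 2L and 3L, and just below it stretches of 49849, 49739 and 49571 bp, on 2L, 3R and 2R, so the limit cuts a continuous range of lengths.

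Each replicate list by itself had gaps in much the same number and of much the same median length. Taken alone, the list of replicate 1 had 536 gaps of 50 kb or more with 59.0% of the bases of the arms, that of replicate 2 had 518 with 55.2% and that of replicate 3 had 520 with 55.8% (mean 56.7% ± 2.04, SD, n = 3). Their median lengths were 105, 105 and 104 kb. Replicate 1, with the fewest regions, had the highest share on every arm. The source names in the labels give replicates 2 and 3 consecutive experiment numbers and replicate 1 a much lower one. Whether these mark a batch is not stated, and with 1 list on that side a batch and the replicate cannot be told apart. The labels do not say whether the embryos of the replicates were collected separately, so an SD given here may reflect technical spread alone.

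The gaps were then measured in a replicate that had no part in defining them. Gaps were taken from the union of 2 lists and the regions of the remaining list were counted in them. Replicate 1 had 0.107% of the bases of such gaps inside its regions, against 35.9% in the rest of the arms. Replicate 2 had 0.497% against 41.8%, and replicate 3 had 0.372% against 40.9%. In every replicate the gaps of the other lists were thus close to empty, with a log2 ratio of -7.19 ± 1.06 (SD, n = 3, below 0 in 3 of 3 replicates). An exact permutation test that flips signs (two-sided) gave p = 0.25, which is as small as 3 values allow, so the ratio is to be read against its SD.

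The few regions that a replicate had inside gaps of the others were weak and narrow. Replicate 1 had 26 regions wholly inside such gaps, replicate 2 had 118 and replicate 3 had 76. Their median score stood at percentile 13.9, 12.2 and 11.7 of their own lists, where the score is the authors' value for a region and was used only as a rank within a list. Their median width was 1419, 1525 and 1463 bp, a little above the narrowest region of any replicate list, 1301 bp. Of these regions 20 of 26, 49 of 118 and 43 of 76 began within 5 kb of a gap's edge. In the gaps of the full union 7.95% of the bases lay that near an edge. This share was not calculated for the gaps of 2 lists. Regions of 1300 to 2500 bp with no gap of the full union beside them also scored low. Their median percentile was 15.1, 15.6 and 15.7 in replicates 1, 2 and 3, so low scores at such widths are not particular to gaps.

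The lengths of the stretches were spread more widely than regions strewn evenly would give. For comparison, the mean number of stretches of each length was calculated in closed form for the union regions of an arm placed uniformly on it without overlap, as a description with no p. Gaps of 50 kb or more numbered 505 against a mean of 425 under such placement, and on 2L they numbered 99 against 98.2. On 2R they numbered 87 against 48.9. The lengths differed more than the numbers. From 50 to 100 kb there were 241 gaps against 382, from 100 to 150 kb 128 against 38.9, from 150 to 200 kb 68 against 4.13 and from 200 to 300 kb 48 against 0.501. At the short end, 2347 stretches were under 5 kb against 933, while those of 10 to 25 kb and 25 to 50 kb numbered 572 and 368 against 1391 and 933. Against uniform placement, H2Av regions thus came in tighter groups, with more stretches of 100 kb or more between them and fewer of 10 to 50 kb. The gaps held 63.5 Mb against a mean of 30.6 Mb under uniform placement.

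**Figure D1:**
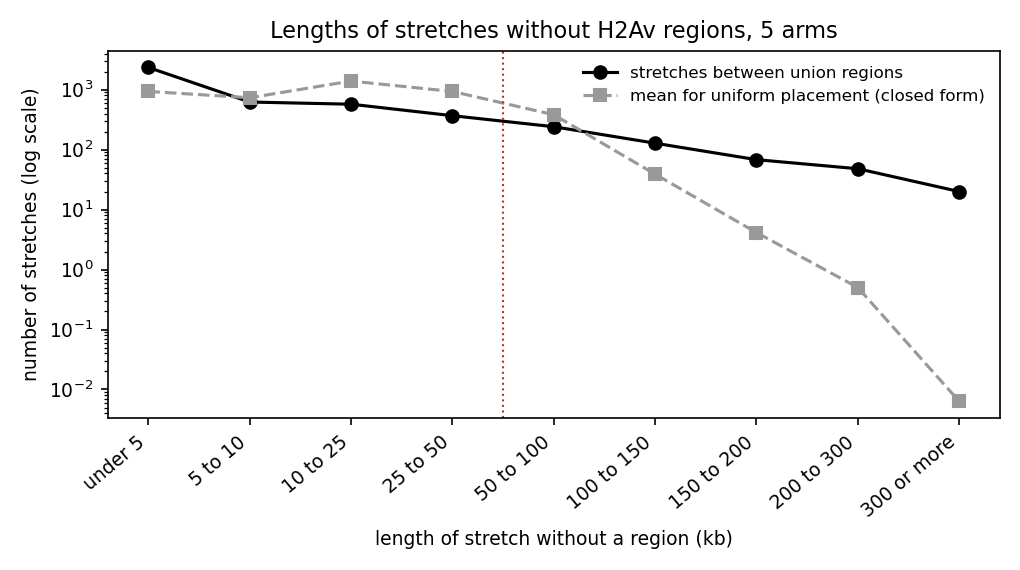
Number of stretches without an H2Av region on the 5 arms (y axis, log scale) by length in kb (x axis), for the union of 3 replicates (black) and as the mean for uniform placement of the same regions (grey). The dotted red line marks 50 kb; stretches under 5 kb and over 100 kb lie above the grey line, and those of 5 to 100 kb below it.

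The arms differed in how much of them was gap. On 2L the 99 gaps covered 58.6% of the arm, on 3R 126 covered 55.7%, on X 94 covered 53.0%, on 3L 99 covered 52.9% and on 2R 87 covered 45.6%. 2R was the lowest in each list by itself as well, with 51.4%, 46.9% and 48.9% in replicates 1, 2 and 3, and 2L the highest, with 64.0%, 60.2% and 60.1%. The means of the lists were 49.0% ± 2.28 for 2R and 61.4% ± 2.26 for 2L (SD, n = 3), and the ranges of these arms did not overlap. 3L and X, with 56.3% ± 1.75 and 56.9% ± 2.53, did not differ beyond their spread. The number of gaps per Mb was more alike than the share, from 4.03 on 3L to 4.52 on 3R, and 2R had shorter gaps, with a median of 91.3 kb against 104 to 111 kb on the other arms. Uniform placement would give 31.7% on 2L and 15.5% on 2R, the highest and lowest of the 5 arms there too.

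**Figure D2:**
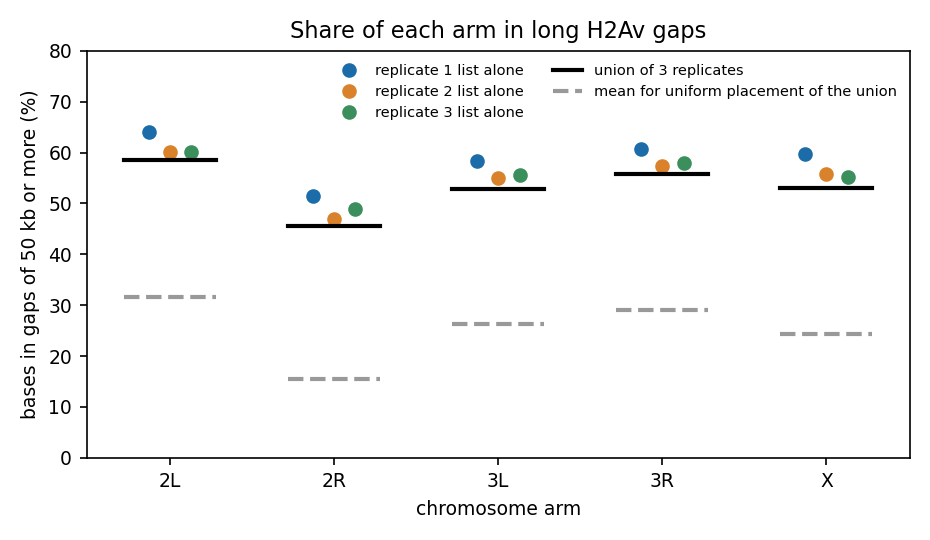
Share of the bases of each arm in gaps of 50 kb or more (y axis, %) for each replicate list by itself (points), for the union of the 3 lists (black lines) and as the mean for uniform placement of the union regions (dashed grey lines). 2R has the lowest and 2L the highest share in all 3 replicates, and every black line lies far above the dashed line of its arm. For single lists no such mean was calculated.

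Outside the gaps the arms were much alike in H2Av. The bases left outside gaps, 55.5 Mb in all, were inside regions to 35.9%, 40.8% and 40.3% in replicates 1, 2 and 3. By arm this share was 41.1% ± 2.76 on 2R, 39.9% ± 2.66 on 2L, 39.2% ± 2.88 on X, 38.5% ± 2.65 on 3R and 36.7% ± 2.71 on 3L (SD, n = 3). The log2 ratio of 2R to the mean of 2L, 3L and 3R was 0.40 ± 0.0037 over whole arms and 0.10 ± 0.0035 outside the gaps. In each replicate the arm with the highest share exceeded the lowest 1.35- to 1.36-fold over whole arms and 1.11- to 1.13-fold outside gaps. These shares use the lists that defined the gaps and are a description.

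Gaps lay all along the arms and were scarcer next to the centromere, with X as the exception. In the 2 Mb at the centromere side, gaps held 18.3% of 2R, 17.8% of 3L, 26.9% of 2L and 38.5% of 3R, but 76.2% of X. In the 2 Mb at the telomere side they held 35.8% of 2R, 43.0% of 3L, 45.9% of X, 53.9% of 2L and 66.9% of 3R. Between these ends the share was 55.6% over the 5 arms. In windows of 1 Mb the median share was 54.1% over 117 windows. It was above 80% in 6 windows and below 20% in 3, all at a centromere side. On 3L the window of 23 to 24 Mb had 0.677%, on 2L that of 22 to 23 Mb had 11.2%, and the first Mb of 2R had 11.6%.

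The densest tract of gaps was on 2L. From 14 to 18 Mb, a tract chosen after its values were seen, 15 gaps held 82.1% of the bases, with a median length of 182 kb, against 53.7% in the rest of the arm. Its regions covered 6.30%, 6.97% and 6.84% of the bases in replicates 1, 2 and 3. The window from 14 to 15 Mb had 96.1% in gaps, the highest of all 117, and of 10 equal parts of 2L the fourth from the centromere had 88.9%.

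**Figure D3:**
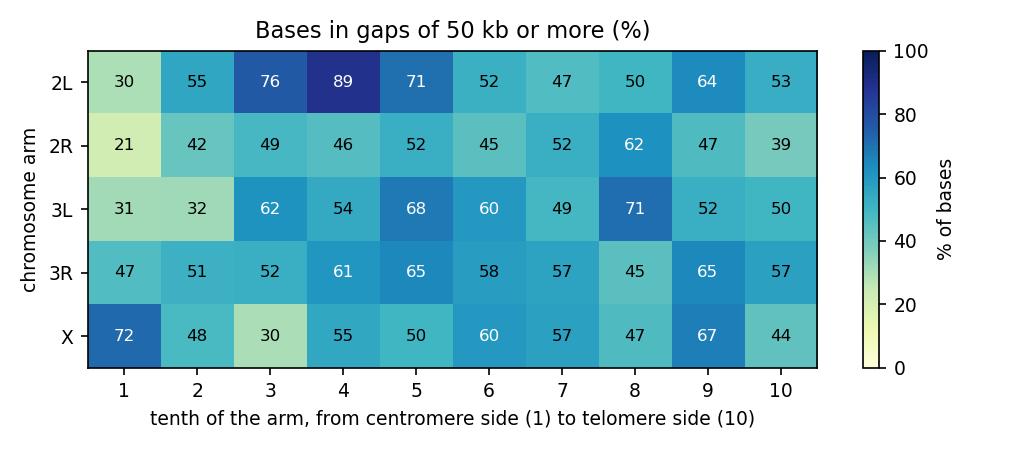
Share of bases in gaps of 50 kb or more (colour and printed value, %) in 10 equal parts of each arm (x axis), from the centromere side (1) to the telomere side (10), for each arm (y axis) in the union of 3 replicates. Part 1 is low on 2L, 2R and 3L and high on X, and part 4 of 2L has the highest value.

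The 10 longest gaps were on every one of the 5 arms, with 4 of them on 2L. The longest, on 2L from 14365975 to 15003418, was 638, 638 and 639 kb long in the lists of replicates 1, 2 and 3 taken alone. The next, on 2R from 15562453 to 16125945, was 564, 566 and 567 kb. The 3 lists placed the borders of both within a few kb of each other. The longest on 3L, from 22283661 to 22701467, had 426, 418 and 425 kb, and the longest on 3R, from 23791558 to 24159880, had 369, 368 and 369 kb. A further gap on 3L, from 13507966 to 13920406, had 413, 413 and 412 kb.

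Others of the 10 differed more between lists. On X the longest gap, from 21985792 to 22333424 near the centromere side, was 420 and 412 kb in replicates 1 and 3 and 348 kb in replicate 2. It ended there at a region of 1320 bp, from 22333425 to 22334744, that only replicate 2 had, at percentile 9.88 of its scores. On 2L the gap from 15773762 to 16223596 was 483 kb in replicate 1 and 450 kb in the other lists. The remaining 3 of the 10 differed less between lists. On 2L the gap from 16927780 to 17383218 was 464, 456 and 464 kb long in replicates 1, 2 and 3, and that from 21759594 to 22112204 was 356, 355 and 353 kb. On X the gap from 7226850 to 7572304 was 352, 345 and 346 kb.

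Over all gaps the borders were mostly shared. Of 1009 borders (1 gap on 3L, of 101 kb, reached the telomere-side end of the sequence and had a single border), 561 (55.6%) had the nearest region of all 3 replicates within 1 kb of each other, and 782 (77.5%) within 5 kb. At 111 borders (11.0%) a replicate had its nearest region more than 20 kb further out. The region closest to the gap came from replicate 1 at 154 borders, from replicate 2 at 453 and from replicate 3 at 403, with 1 tie. The stretch of a single list exceeded the gap by a median factor of 1.02, 1.00 and 1.00 in replicates 1, 2 and 3, and was more than 2 times as long for 27, 3 and 11 gaps.

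Gaps with only a single region between them were about as frequent as a random order of the stretches would give on 2R, 3L, 3R and X, and more frequent on 2L. Of the 505 gaps, 128 (25.3%) had another gap as their next stretch, which made 67 neighbouring pairs. If the same stretches of each arm came in random order, the mean would be 58.0 pairs. 2L had 23 pairs against 12.7, whereas 2R had 8 against 8.10, 3L 8 against 10.7, 3R 17 against 16.1 and X 11 against 10.4. The stretch next to a gap was much like any other, with a median of 4.34 kb against 4.27 kb over all stretches, and 52.0% against 53.2% of them were under 5 kb. Across 4409 neighbouring pairs of stretches on the 5 arms, which share lists and border regions, the Spearman correlation of their lengths was 0.058.

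Most gaps had no neighbouring gap, which a random order would give too, as 11.4% of all stretches were gaps. Of the stretches next to a gap, 13.3% were gaps. The runs and intervals given here were not compared with a random order. There were 377 gaps with no neighbouring gap, 56 runs of 2, 4 runs of 3 and 1 run of 4. The run of 4 was on 2L from 9015697 to 9427000, where gaps held 96.3% of 411 kb. The longest runs of 3 were on 2L from 17590945 to 18119398, with 98.6% of 528 kb, and on 3R from 3363760 to 3710953, with 97.6% of 347 kb. Between successive gaps of an arm lay a median of 6 regions (quartiles 3 and 10, at most 58), over a median of 61.7 kb. Regions covered a median of 52.9% of these intervals. The longest tracts free of gaps were on 2R, from 325254 to 1074492 (749 kb, 57 regions) and from 19405516 to 20153698 (748 kb, 45 regions), and on X, from 16155768 to 16868607 (713 kb, 58 regions).

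H2Av regions bordering a gap were slightly narrower and weaker than other regions. Of the 4411 union regions, 942 (21.4%) stood beside a gap, 67 of them with a gap on both sides. Their median width was 3552 bp, against 4142 bp for the 3469 regions with no gap beside them. A width of 12 kb or more was reached by 59 of the 942 (6.26%), against 9.61% of all union regions. All 3 replicates had a region at 652 of them (69.2%), against 72.6% of all union regions, and at 43 of the 67 with gaps on both sides (64.2%). In the lists, the regions beside a gap had a median score at percentile 48.8, 46.1 and 47.3 in replicates 1, 2 and 3, against 52.2, 53.4 and 53.8 for the others. A score in the top 10% of the list was reached by 7.16% ± 1.05 of the former and 11.1% ± 0.106 of the latter (SD, n = 3).

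The same held for a replicate that had not defined the gaps. Held-out regions beside a gap of the other lists numbered 786, 928 and 875 in replicates 1, 2 and 3. They were set against 3171, 3143 and 3105 other regions. These groups fall short of the 4056, 4441 and 4241 regions of the lists on the 5 arms. Regions in neither group were left out, and the effect of this on the differences was not tested. Those beside a gap had a median width of 3569, 3611 and 3645 bp, against 3869, 4077 and 4140 bp for the others compared. The log2 ratio was -0.16 ± 0.037 (SD, n = 3, below 0 in 3 of 3 replicates; exact sign-flip permutation p = 0.25, two-sided, the smallest possible). Their median score percentile was 50.4, 51.3 and 51.0, against 53.1, 57.4 and 56.4, a difference of -4.69 ± 1.80 points (SD, n = 3, same exact permutation test, p = 0.25). The score difference was -0.77 ± 0.489 with the highest-scoring 50% of each list and -7.03 ± 1.63 with gaps of at least 100 kb. The sign of the width ratio turned to 0.05 ± 0.018 with the highest-scoring 50%, and that of the score difference to 1.09 ± 2.51 for regions with a gap on both sides, so neither holds for all kinds of region.

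Within a class of width, the ranks of scores beside gaps and elsewhere were close. Regions of 5000 to 10000 bp had a median percentile of 76.7, 75.1 and 73.3 beside gaps in replicates 1, 2 and 3, against 73.0, 72.6 and 73.0 elsewhere. For regions of 2500 to 5000 bp the values were 51.1, 50.2 and 50.5 beside gaps, against 53.4, 54.0 and 53.6. The direction thus differed between these classes, in the same way in all 3 replicates. Regions of at least 10000 bp had 86.7, 84.0 and 85.8 beside gaps, against 85.0, 83.2 and 84.7. Those under 2500 bp had 16.1, 15.1 and 13.9, against 15.1, 15.6 and 15.7, with no direction common to the replicates.

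The 67 regions with a gap on both sides had a median width of 3155 bp, against 4142 bp for regions with no gap beside them. A width of 12 kb or more was reached by 4 of the 67 (5.97%), against 9.61% of all union regions. The widest of the 67 was on 2L from 11261281 to 11287905, 26625 bp. It had 25887, 26009 and 25514 bp inside regions of replicates 1, 2 and 3 and a highest score at percentile 75.4, 79.5 and 78.8. Next came 2R from 12658610 to 12672898, with 13292, 14289 and 13893 bp and a highest score at percentile 71.0, 71.0 and 71.5. The region on 3R from 17485273 to 17498928 had 13315, 13530 and 13514 bp and percentile 78.2, 86.2 and 88.8. All 3 replicates covered these islands to nearly the same number of bases. On 2L they did so with 2, 1 and 2 regions in replicates 1, 2 and 3, on 2R with 3, 1 and 2, and on 3R with 1 each. For regions of 10000 bp or more beside a gap the median percentile was 86.7, 84.0 and 85.8. The islands on 2L and 2R scored below it in all 3 replicates, and that on 3R in replicate 1 alone. Where a list split an island, its highest-scoring region may be narrower than 10000 bp. The 3 narrowest, of 1312 bp on 2L from 5623014 to 5624325, of 1320 bp on X (the region that ends its longest gap) and of 1381 bp on 3R from 17958197 to 17959577, were each in 1 list alone, at percentile 4.15, 9.88 and 7.39.

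Outward from a gap, the share of bases inside H2Av regions was highest at the border and changed little beyond 10 kb. The first bases outside a gap are inside a region by the rule, and the share of bases inside regions was 57.4%, 78.6% and 76.5% within 2 kb of a gap in replicates 1, 2 and 3. From 5 to 10 kb out it was 46.0% ± 2.06, from 10 to 20 kb 37.1% ± 1.99, from 30 to 40 kb 33.9% ± 2.11 and beyond 100 kb 37.1% ± 2.77 (SD, n = 3). The lowest value of each replicate, 31.4%, 35.2% and 35.0%, was at 30 to 40 kb. This profile uses the lists that defined the gaps and is a description.

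**Figure D4:**
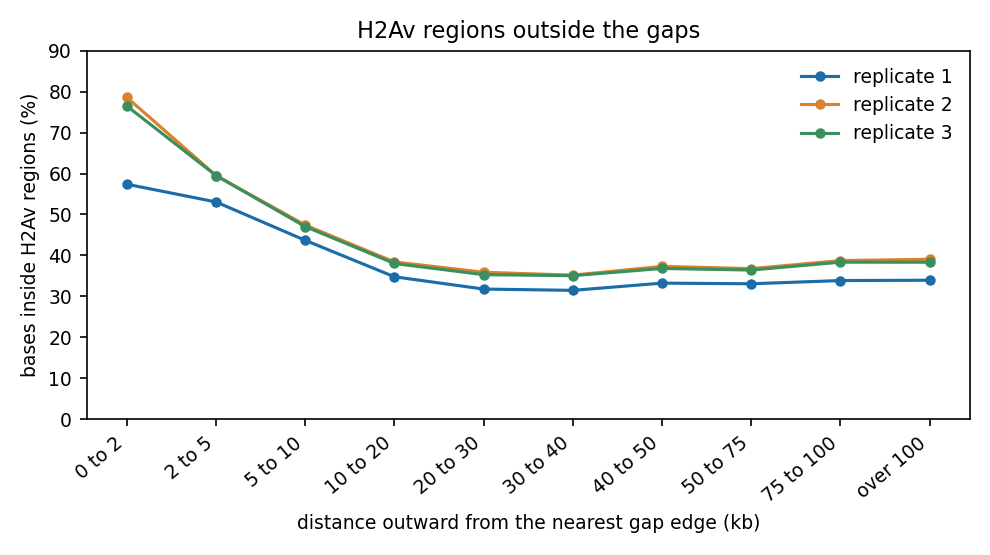
Share of bases inside H2Av regions (y axis, %) by distance outward from the nearest edge of a gap (x axis, kb), for replicates 1 (blue), 2 (orange) and 3 (green), over the bases of the 5 arms that lie outside gaps. The share falls from 57.4 to 78.6% within 2 kb to 34.8 to 38.4% at 10 to 20 kb and changes little beyond.

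The combined list, which the rule did not use but which comes from the same libraries, added little H2Av inside the gaps. Its regions held 469 kb of the gaps, 0.738% of their bases, against 6.24% of the bases of stretches under 50 kb. Of this, 183 kb (39.1%) belonged to combined regions that ran over the edge of a gap from the bordering region. The other 286 kb was in 214 regions that lay wholly inside 167 of the gaps (33.1%), 1 in 128 gaps, 2 in 33, 3 in 4 and 4 in 2. In 66 gaps (13.1%, exact 95% interval by Clopper-Pearson from 10.3 to 16.3, for counting error alone) the combined list had no base, against 15.3% of all stretches. This share was 6.99% when replicate 2 was left out of the union and 3.52% without replicate 3, and without replicate 2 the number of combined regions inside gaps rose from 214 to 359. When combined regions were taken out as well, 471 of the 505 gaps still held an empty piece of 50 kb or more.

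The 3 gaps with most combined bases were 3L from 22895695 to 23006771 (111 kb) with 6305 bases, 3L from 13507966 to 13920406 with 5206 and 2R from 20309813 to 20393424 (83.6 kb) with 4808. The longest gap, on 2L, had 168 combined bases, all at its edges, and the longest on 3L had 0. The 3L gap of 412 kb with 5206 bases held 4 combined regions.

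Combined regions inside gaps were densest at the edges and thinned out inward. Within 5 kb of an edge there were 92 of the 214 (43.0%), or 18.2 per Mb (95% exact Poisson interval 14.7 to 22.3, counting error only). From 5 to 10 kb in there were 6.14 per Mb (4.17 to 8.71), from 10 to 25 kb 3.30 (2.45 to 4.35), from 25 to 50 kb 1.17 (0.724 to 1.79) and beyond 50 kb 0.985 (0.602 to 1.52). In stretches under 50 kb the values were 28.3 per Mb (25.9 to 30.9) within 5 kb, 10.4 (8.15 to 13.2) from 5 to 10 kb and 3.42 (2.09 to 5.28) from 10 to 25 kb. The intervals of gaps and shorter stretches were thus apart within 5 kb of an edge and overlapped from 5 kb inward. Such overlap does not show that the densities were alike. From 5 to 10 kb in, gaps had the lower value too, 6.14 against 10.4 per Mb, and the difference was not tested. Shorter stretches had a median length of 3.28 kb, so within 5 kb their bases may lie nearer to an edge than those of gaps.

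**Figure D5:**
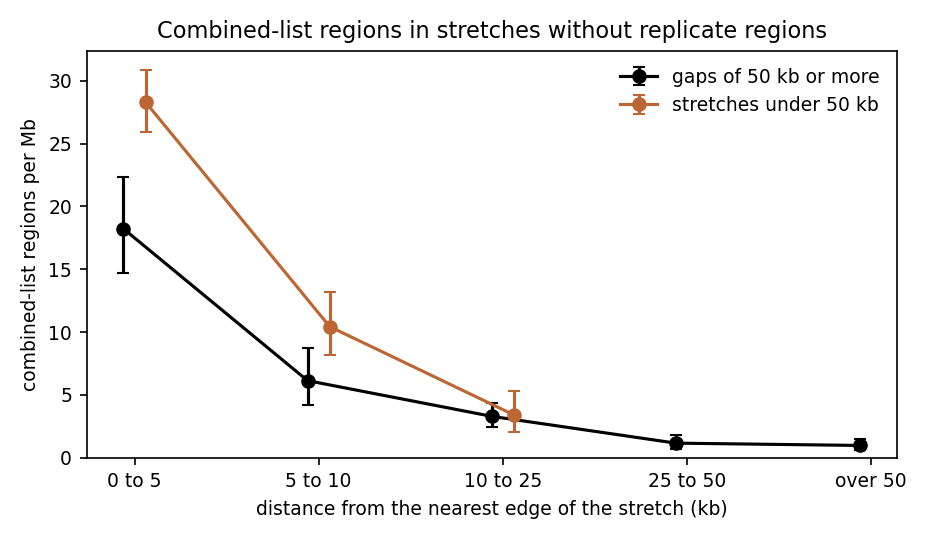
Combined-list regions without a replicate counterpart per Mb (y axis) by distance from the nearest edge of the stretch they lie in (x axis, kb), in gaps of 50 kb or more (black) and in shorter stretches (brown). Bars are 95% exact Poisson intervals, which cover counting error only; the density in gaps falls from 18.2 per Mb at the edge to 0.985 per Mb beyond 50 kb.

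Nearly all combined regions inside gaps were weak and narrow. Their median width was 1220 bp, and their median score stood at percentile 15.3 of the combined list, with 207 in its lower 50%. Of the 214, 123 (57.5%) were narrower than the 1301 bp of the narrowest replicate region. The combined list has regions of 1001 bp, so its smallest width is below that of the replicate lists. This count thus does not by itself mark regions in gaps as narrow. Combined regions inside stretches under 50 kb were much the same, with a median width of 1227.5 bp and a median percentile of 18.6. Of those 598 regions, 30 scored above percentile 50, so these traits are not particular to gaps. The 4 inside gaps that scored above percentile 99, named after their values were seen, were on X at 7375273 to 7376273 with percentile 99.8, on 2R at 3758561 to 3760422 with 99.7 and at 6523670 to 6524670 with 99.6, and on 3R at 3533298 to 3535364 with 99.3. They were 1001, 1862, 1001 and 2067 bp wide. The one on X lay 148423 bp from the nearer edge of its gap. That none of the 4 had a region in any replicate follows from the rule that defines a gap.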

How the data were processed

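H2Av was measured by ChIP-seq in 3 ChIP libraries with 3 inputs. Bowtie 0.12.7 is named in the submitters' processing notes. The authors deposited, per the file headers, significantly enriched regions with positions on FlyBase release 5. Each region has a deposited score, whose scale the headers do not name. How regions were called, with which thresholds, and how the combined list was made is not given in the sources used here. Depth is unknown.

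Sequence lengths came from the headers. Regions running past a sequence end (0, 1 and 2 in replicates 1, 2 and 3 and 2 in the combined list) were ended there. Replicate regions on 2L, 2R, 3L, 3R and X that shared at least 1 base or touched were merged, and stretches between them of at least 50000 bp were gaps. Means for uniform placement and for random order came from closed formulas. Score percentiles are ranks within a list. Held-out values used gaps of 2 lists and regions of the remaining list, with an exact sign-flip permutation test. Intervals are 95% exact. Interval functions were tested on simulated lists (0 mismatches in 50). Alternatives were minima of 25 and 100 kb, the highest-scoring 50%, sequence ends left out, bases in at least 2 replicates, gaps of the combined list or of single lists, and leaving out each replicate.

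The gaps and measures were chosen with earlier results of these data known. Named were the 10 longest gaps, the longest per arm, the 3 with most combined bases, 3 on either side of the limit, the 3 widest and narrowest regions between gaps and the 3 runs of most gaps. Genes were not placed, since the gene table is on release 6. Calculations used scipy 1.17.1, pandas 2.3.3 and numpy 2.4.6 under Python 3.11.15, and figures matplotlib 3.10.9.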

Additional observations from a re-analysis of the deposited data

How the results depend on the processing

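Of 75 values under other settings, 51 stayed within 1.5 times a count, within the spread of a share or on the same side of 0, and the 23 held-out values had p of 0.25 or more by design, which says nothing about stability. The number of gaps was 873 and 264 with minima of 25 and 100 kb, and 507 to 515 without 1 replicate. The share of the arms in gaps was 64.2% and 39.2% with these minima, 68.1% with the highest-scoring 50%, 56.8% for bases in at least 2 replicates, 50.5% for gaps of the combined list, 59.0% and 55.8% in the lists of replicates 1 and 3 alone, and 53.6 to 55.1% without 1 replicate. The share of gaps with a gap as next stretch was 43.6% and 11.0% with the minima, 44.5% with the highest-scoring 50% and 24.5 to 26.4% without 1 replicate. Gaps with no combined base were 1.41% with the highest-scoring 50%, 0% (0 of 529) for bases in at least 2 replicates and 3.52 to 10.1% without 1 replicate (10.1%, 6.99% and 3.52% without replicates 1, 2 and 3), so that each list bears on this share. Combined regions inside gaps numbered 352 and 108 with the minima, 1649 with the highest-scoring 50%, 489 for bases in at least 2 replicates and 238 to 359 without 1 replicate, the highest without replicate 2. Fewer regions, or another minimum, change the set of gaps by construction. The held-out log2 ratio of coverage was -7.23 to -6.20 over all settings and -6.31 to -6.20 without 1 replicate. The held-out score difference was 1.09 for regions with a gap on both sides, -0.77 with the highest-scoring 50%, -7.03 and -5.69 with minima of 100 and 25 kb, and -5.49 to -3.88 without 1 replicate. The held-out log2 ratio of width was 0.048 with the highest-scoring 50%, and otherwise below 0, with -0.17 to -0.14 without 1 replicate. The cause of these reversals was not tested. No paired analysis was possible because no list was used for the input libraries, the other group with replicate numbers. The held-out values compare parts of the same list.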
